A study of Homo sapiens with 9 samples.

Results

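The respiratory chain genes described here are the rows whose symbol starts with NDUF, UQCR, COX4 to COX8, ATP5 or MT-, together with SDHA, SDHB, SDHC and SDHD, without symbols that end in P and digits or contain -AS. The rule gave 104 genes of the 14839 in the table, of which 86 are encoded in the nucleus and 18 in the mitochondrial DNA. In all, 119 symbols start this way, and 15 were left out, namely 11 pseudogene symbols, 2 antisense symbols and, since their names also end in P and a digit, MT-ATP6 and MT-ATP8. These 2 mitochondrial subunits of ATP synthase are described beside the members and are not counted among them. Several rows carry older symbols, such as ATP5D for ATP5F1D and ATP5L2 for ATP5MGL.

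The respiratory chain passes electrons from NADH (complex I) and succinate (complex II) through complex III and cytochrome c to oxygen (complex IV), and ATP synthase uses the resulting proton gradient to make ATP. Complex II is built from nuclear gene products alone, whereas the other complexes join nuclear-encoded subunits with subunits encoded by the mitochondrial DNA. The mitochondrial DNA is transcribed from both strands into long precursors that are cut at the transfer RNAs, so that its messenger, ribosomal and transfer RNAs share their promoters, and MT-ND6 is the only protein-coding gene read from the opposite strand to the others.

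The data were polyA RNA sequencing of MP41 cells, a uveal melanoma (UM) cell line with a GNA11 mutation, after transfection with a synthetic miR-16 or with the control mimic miR-CTR at 66 nM. There were 9 libraries, 1 per condition. The miR-16 libraries were taken at 6, 12, 24 and 48 h, and the miR-CTR libraries at the same times and at 0 h. The 0 h library carries the label of the control mimic, and it is the only starting point for both series. The study asked which genes respond to miR-16, a microRNA that restrains proliferation, in this line. A value is log2(normalised reads + 1), a difference is miR-16 minus miR-CTR at the same time, "early" averages 6 and 12 h, and "late" averages 24 and 48 h. A gene was called when its difference was past 0.5, the threshold used in the study. Each condition had 1 library, the 4 times were not treated as replicates, and no test between the mimics was run. Therefore the standard errors (SE) given below cover the counting of reads only.

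The libraries held between 20270000 and 27360000 reads on genes, and their median gene lay between 9.13 and 9.17. The nuclear-encoded members were well covered, with a median of 2168 reads per gene and library, and 77 of 86 lay above the median gene in mean expression. The median counting SE of their late difference was 0.031, against 0.061 over all genes. No member was at 0 in any library. The 7 melanocyte markers were all measured, from 12.29 (DCT) to 17.88 (TYRP1) at 0 h. Of the 4 fibroblast markers 2 were measured, and COL3A1 and DCN have no row among the genes analysed here. COL1A1 was at 8.31 and LUM at 6.94 at 0 h, and their late differences were 0.04 and -0.81. Whether fibroblasts were present, and their part in the results, was not tested. In bulk RNA fewer cells of a type and less RNA per cell cannot be told apart. The endothelial, immune and epithelial markers have no row among the genes analysed here.

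The mimic carries a seed that pairs with short stretches of 3′UTRs, so its sequence and its matches in members are shown first, with bases 2 to 8 of the miRNA (the seed) and the matched bases of each 3′UTR in capitals. The mature sequence is that of RefSeq, and the sites were found in the longest 3′UTR of GENCODE 29 on GRCh38, each with 8 bases on either side, read along the mRNA.
hsa-miR-16-5p: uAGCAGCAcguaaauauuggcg
ATP5G3, 8mer, chr2:175177476-175177483, minus strand: cagtatttTGCTGCTAatacttta
NDUFS1, 7mer-m8, chr2:206120629-206120635, minus strand: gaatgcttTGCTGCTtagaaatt
SDHC, 7mer-m8, chr1:161363680-161363686, plus strand: agaaaactTGCTGCTtttaaaat
ATP5A1, 7mer-m8, chr18:46082850-46082856, minus strand: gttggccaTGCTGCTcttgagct
NDUFS7, 7mer-m8, chr19:1394680-1394686, plus strand: gcggactgTGCTGCTccctccct
The 8mer is the site in which the match to bases 2 to 8 (TGCTGCT) is followed by an A, and the 7mer-m8 lacks that A. The 7mer-A1 (GCTGCTA) has the A but lacks the match to base 8.

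Few nuclear-encoded members held such a site. Only 8 of 86 (9.30%) had an 8mer, a 7mer-m8 or a 7mer-A1, against 29.3% of the 12017 genes with an annotated 3′UTR. Each of these 8 had an 8mer or a 7mer-m8, while the counts over all genes include genes with only a 7mer-A1. The others were ATP5S, ATP5E and NDUFA11. The 3′UTRs of the members were short, with a median of 451 bases against 1412 over all genes. Of the 58 members with a 3′UTR of up to 1000 bases none held a site, while among those over 2000 bases 7 of 16 did, against 49.5% of all genes of that length. The 8 members with a site had a median late difference of -0.075 and the 78 without of -0.02, against -0.085 and 0.015 for all genes with and without a site. ATP5G3, the only member with an 8mer, encodes a copy of the membrane ring subunit c of ATP synthase. It read 12.46 at 0 h, 12.58, 12.55, 12.65 and 12.57 with miR-16 at 6, 12, 24 and 48 h, and 12.50, 12.50, 12.66 and 12.81 with miR-CTR. Its miR-16 libraries thus lay within 0.10 of each other, and the late difference of -0.125 came from 48 h, when the control library was higher. NDUFS1, the largest subunit of complex I, differed late by -0.145, SDHC by -0.11, NDUFS7 by -0.09, ATP5A1 by -0.06, NDUFA11 by -0.035, ATP5S by -0.01 and ATP5E by 0. None of the 8 was called.

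Over the 9 libraries the mitochondrial and the nuclear genes took different courses. The MT- genes, here with MT-ATP6 and MT-ATP8, made up 3.04% of all gene reads at 0 h and more at every later point. With miR-CTR the share was 3.32%, 3.85%, 4.12% and 4.41% at 6, 12, 24 and 48 h, and with miR-16 it was 3.59%, 3.45%, 4.21% and 4.73%. The nuclear-encoded members made up 1.11% at 0 h, then 1.10%, 1.13%, 1.22% and 1.35% with miR-CTR, against 1.12%, 1.19%, 1.26% and 1.25% with miR-16. Both sets thus took a larger share at 24 and 48 h than at 0 h in both series, the mitochondrial one by 1.45 times and the nuclear one by 1.21 times with miR-CTR at 48 h, and by 1.56 and 1.12 times with miR-16. The ratio of the MT- share to the nuclear share was 2.73 at 0 h. With miR-CTR it was 3.01, 3.40, 3.38 and 3.28, and with miR-16 it was 3.20, 2.90, 3.33 and 3.79. At 12 h the ratio was therefore lower with miR-16 than with miR-CTR, and at 48 h it was higher. Whether such differences exceed those between repeated cultures was not tested.

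**Figure D1:**
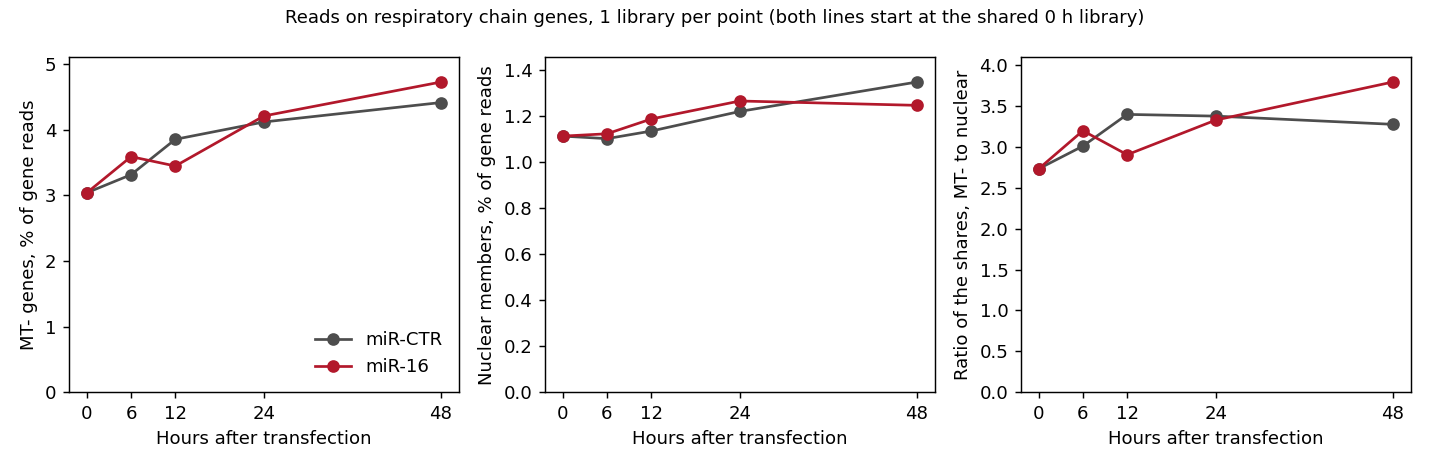
Share of gene reads on the mitochondrial genes (left, with MT-ATP6 and MT-ATP8) and on the 86 nuclear-encoded members (middle) and the ratio of the shares (right) against hours after transfection, with miR-CTR in grey and miR-16 in red, 1 library per point. The mitochondrial share was 3.04% at 0 h and 4.41% and 4.73% at 48 h, and the miR-16 ratio was below the control at 12 h and above it at 48 h.

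Between the mimics the members differed little. In the late window 1 member, NDUFAF4, was called lower, where 5.73% of all genes were, and 1 member, ATP5L2, was called higher, where 7.76% of all genes were. Among the genes above the median mean the shares called were 4.91% lower and 2.75% higher, and of the 77 nuclear-encoded members above the median mean none was called. The median late difference was -0.03 for the nuclear-encoded members and 0.065 for the MT- members, with all genes at 0.005. The 2 calls were lost when recovered reads were scaled to the library total, with NDUFAF4 at -0.489 and ATP5L2 at 0.336, and the nuclear median was 0.003 under quantile normalisation. In the early window 1 of 104 members, the transfer RNA gene MT-TE, was called lower against 1.45% of genes, and none was called higher against 2.04%.

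The single times showed a change of sign in both sets. The nuclear-encoded members had median differences of 0.04, 0.06, 0.05 and -0.12 at 6, 12, 24 and 48 h. Those of the 10 counted messenger RNAs of the mitochondrial plus strand, without MT-ATP6 and MT-ATP8, were 0.155, -0.18, 0.04 and 0.175. At 12 h, 22 of 86 nuclear-encoded members were lower with miR-16, against 48.1% of all genes, while 9 of the 10 mitochondrial messenger RNAs were. At 48 h, 59 of 86 nuclear-encoded members (68.6%) were lower, against 49.5% of all genes, while all 10 counted plus-strand messenger RNAs were higher, by 0.01 to 0.29. MT-ND6 (-0.22) and, outside the counted members, MT-ATP8 were lower at 48 h. The mitochondrial ribosomal RNAs were lower with miR-16 at 24 h (-0.10 and -0.04) and at 48 h (-0.26 and -0.08). In these libraries the medians of the nuclear-encoded members and of the 10 messenger RNAs thus had opposite signs at 12 and 48 h. They had the same sign at 6 and 24 h. The opposite signs at 12 and 48 h were there under all 4 other scalings. Nuclear medians were 0.06 to 0.07 and -0.11 to -0.085, and those of the 10 messenger RNAs -0.18 to -0.124 and 0.135 to 0.191. At 24 h the median of the 10 messenger RNAs was 0 under quantile normalisation. Past 0.5 at 48 h were NDUFAF4, ATP5D and MT-TE on the lower side, where 8.96% of all genes were, and MT-TQ on the higher side, where 10.4% were. Lower at all 4 times were 5 nuclear-encoded members (ATP5D, COX6C, NDUFAF4, NDUFAF6 and NDUFB9) and MT-ND6, together 6 of 104 members where 16.7% of all genes were. Higher at all 4 times were 15 nuclear-encoded members and MT-TL1, 16 of 104 where 17.7% of all genes were. ATP5D differed by only -0.01 at 6 h, and by 0.01 after centring on the median gene. The 4 differences do not share a library.

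**Figure D2:**
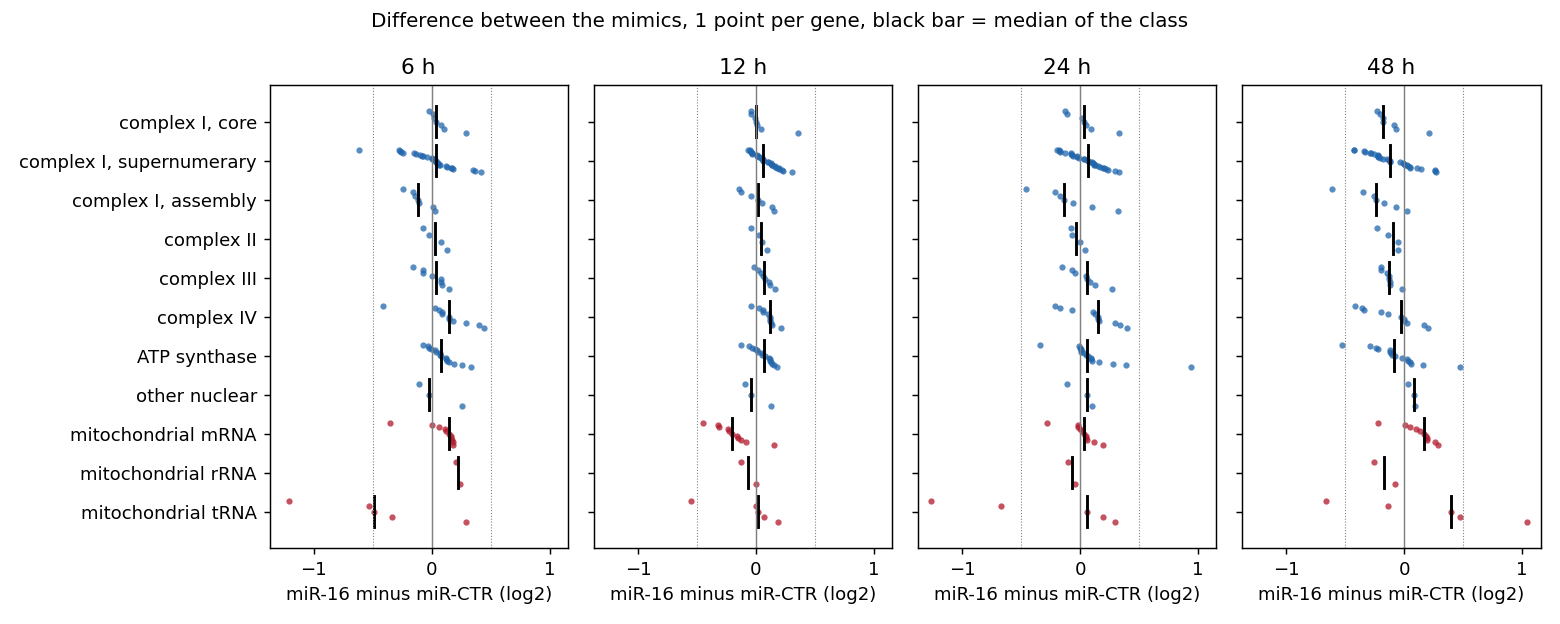
Difference between miR-16 and miR-CTR (log2) at 6, 12, 24 and 48 h for each of the 104 members, grouped by complex, with nuclear-encoded genes in blue, mitochondrial genes in red, the median of a class as a black bar and the thresholds of -0.5 and 0.5 dotted. The mitochondrial messenger RNAs had a median of -0.2 at 12 h and 0.17 at 48 h, MT-ND6 included, and most nuclear-encoded classes lay below 0 at 48 h.

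Complex I, the entry point for electrons from NADH, is the largest complex and had 44 nuclear-encoded members, of which 31 were lower with miR-16 at 48 h (median -0.16). The 7 core subunits, which carry the flavin and the iron-sulfur clusters, had a late median of -0.075 and lay between -0.17 (NDUFS3) and 0.27 (NDUFV2). NDUFV2 (chromosome 18) had few reads, 112 to 200 per library, and its processed copy NDUFV2P1 was also measured (8.74 at 0 h), so its reads may be split between the copies. The 30 supernumerary subunits, which surround the core, had a late median of -0.02. NDUFA1, needed for the assembly of the membrane arm, was lowest with -0.28 late and -0.43 at 48 h, followed by NDUFC1 with -0.265. NDUFC1 read 9.90 with miR-16 and 10.52 with miR-CTR at 6 h but 10.52 and 10.36 at 12 h, so the sign of its difference changed between these times.

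At the other end stood NDUFA7 and NDUFA13, both supernumerary subunits. NDUFA7 read 9.48 at 0 h, 9.95, 9.66, 10.13 and 10.26 with miR-16 and 9.53, 9.50, 9.80 and 9.99 with miR-CTR. It was higher with miR-16 at all 4 times, by 0.30 late (SE 0.045), and its miR-16 libraries of 24 and 48 h were the highest of the 9. NDUFA13 was higher by 0.25 late, with 0.37, 0.10, 0.24 and 0.26 at the 4 times.

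The 7 assembly factors of complex I, which help to build the complex and do not stay in it, had a late median of -0.19, with 5 of 7 below 0 late and 6 of 7 at 48 h, and ranged from -0.535 to 0.17 late. NDUFAF4 (ENSG00000123545.5, chromosome 6, 96889313 to 96897881 on the minus strand of GRCh38) was the member with the lowest late difference. It read 8.85 at 0 h, 8.39, 8.56, 8.11 and 8.06 with miR-16, and 8.63, 8.69, 8.57 and 8.67 with miR-CTR at 6, 12, 24 and 48 h. The miR-16 libraries lay below every miR-CTR library at all times, and the gap was widest at 24 and 48 h, with -0.46 and -0.61. The late difference of -0.535 (counting SE 0.081) corresponds to 0.69 times the control level and rests on 252 to 476 reads per library. Its 3′UTR of 1791 bases holds no 8mer or 7mer-m8 for miR-16. NDUFAF3, a partner of NDUFAF4 in assembly, differed late by -0.28, NDUFAF5 by -0.215, NDUFAF6 by -0.19 and NDUFAF1 by -0.115, while NDUFAF7 (0.015) and NDUFAF2 (0.17) were not lower.

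Complex II, or succinate dehydrogenase, also works in the citric acid cycle. SDHA, its flavoprotein, read 12.03 at 0 h, 12.08, 12.03, 12.05 and 12.04 with miR-16, and 12.00, 12.07, 12.05 and 12.27 with miR-CTR. Only the control library of 48 h stood out, so that the difference was -0.23 at 48 h and within 0.08 of 0 before. The iron-sulfur subunit SDHB differed late by -0.005 and the membrane anchors SDHC and SDHD by -0.11 and -0.06, and all 4 genes were lower with miR-16 at 48 h, by 0.05 to 0.23. Complex III passes electrons from ubiquinol to cytochrome c. Its 8 nuclear-encoded members all lay between -0.20 and -0.02 at 48 h and between -0.175 (UQCRC2) and 0.075 (UQCR10) late, UQCRC2 being a core protein and UQCRFS1 (-0.135 late) the Rieske iron-sulfur protein. UQCR11, a small accessory subunit, differed late by 0.055.

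Complex IV, cytochrome c oxidase, had members that differed in both directions. Of its 11 nuclear-encoded genes, 10 were higher with miR-16 at 6 h and again at 12 h, and 8 at 24 h. At 48 h 3 were higher, 6 lower and 2 level. This course was not particular to complex IV, since 54, 63, 54 and 24 of all 86 nuclear-encoded members were higher at these times. Of all genes 49.4% to 49.8% were. COX6C read 12.47 at 0 h, 12.16, 12.58, 12.40 and 12.66 with miR-16 and 12.57, 12.62, 12.61 and 13.08 with miR-CTR. It was lower with miR-16 at every time, by 0.41, 0.04, 0.21 and 0.42. COX5A read 11.25 at 0 h and 11.24 and 11.25 with miR-16 at 24 and 48 h, where miR-CTR was at 11.41 and 11.59, a late difference of -0.255. COX5A thus stayed at its starting level with miR-16 while it was higher in the control libraries.

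COX6A1 differed in the other direction. It read 10.90 at 0 h, 11.22, 11.09, 11.41 and 11.47 with miR-16 and 10.82, 10.95, 11.01 and 11.30 with miR-CTR, and the late difference was 0.285 (SE 0.029). The copy COX6A1P2 was at 10.50 at 0 h with a late difference of 0.09, so reads of the pair may be split in the counting. COX7B was higher by 0.27 late, and COX6B1 by 0.16. NDUFA4, which is named for complex I but is a subunit of complex IV, was lower by 0.215. Of the other ubiquitous isoforms, COX4I1 differed late by 0.065, COX7A2 by -0.025 and COX8A by 0.075. The tissue isoforms COX4I2, COX6A2, COX6B2, COX7A1 and COX8C and the hypoxia-linked NDUFA4L2 are not among the rows analysed here. None of the complex IV members was called.

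ATP synthase had 16 members with a late median of -0.01. ATP5D, the delta subunit of the rotating stalk, read 10.70 at 0 h, 10.71, 10.69, 10.55 and 10.56 with miR-16, and 10.72, 10.75, 10.89 and 11.09 with miR-CTR. The 2 series were level at 6 h and drew apart later, to -0.34 at 24 h and -0.53 at 48 h, a late difference of -0.435 (SE 0.035) that did not reach the threshold. ATP5L, a subunit of the membrane part, differed late by -0.13, and the beta subunit ATP5B, the catalytic one, by -0.03 with 15.02 at 0 h and 15.13 and 15.24 with miR-16 and miR-CTR at 48 h. ATP5I (0.275) and ATP5J2 (0.17), small membrane subunits, were higher at all 4 times. ATP5L2, a copy of ATP5L on chromosome 22 (42639803 to 42640601), was the only member called higher, with 0.705 (SE 0.34). It read 4.30 at 0 h, 4.65, 4.13, 4.59 and 4.78 with miR-16 and 4.46, 4.26, 3.65 and 4.31 with miR-CTR, which are 11 to 25 reads per library, and the call turns on the low control value of 24 h.

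Of the 3 nuclear-encoded genes outside the complexes, COX7A2L, a factor for the assembly of supercomplexes, differed late by 0.045, ATP5SL (DMAC2) by 0.09 and ATP5S by -0.01.

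**Figure D3:**
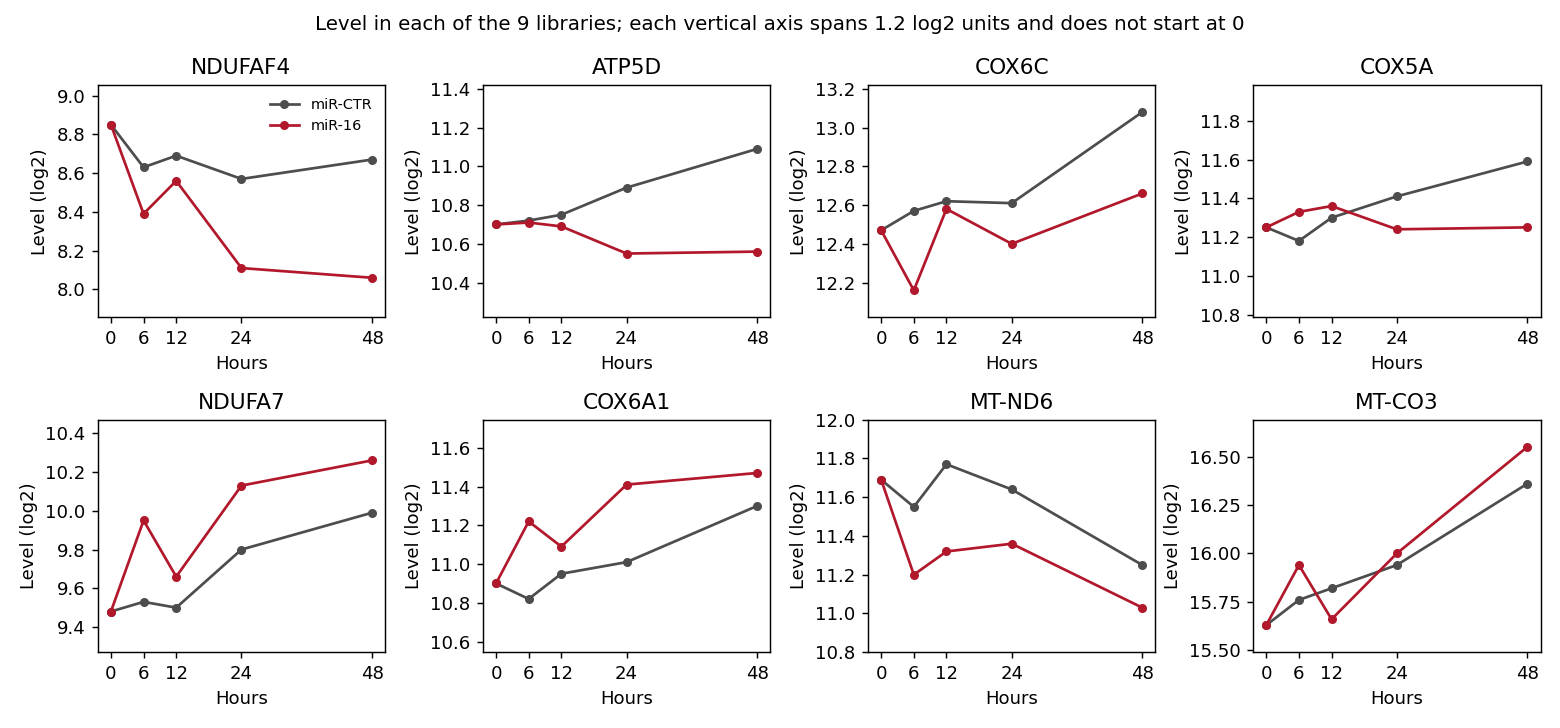
Level (log2) of 8 members in each of the 9 libraries against hours after transfection, with miR-CTR in grey and miR-16 in red, both from the 0 h library, on axes of equal span that do not start at 0. NDUFAF4 and MT-ND6 were lower with miR-16 at all 4 times, NDUFA7 and COX6A1 higher at all 4 times, and ATP5D, COX6C and COX5A were higher with miR-CTR than with miR-16 at 24 and 48 h.

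The mitochondrial messenger RNAs encode 7 complex I subunits (MT-ND1 to MT-ND6 and MT-ND4L), cytochrome b of complex III (MT-CYB), the 3 core subunits of complex IV (MT-CO1 to MT-CO3) and, outside the counted members, ATP synthase subunits 6 and 8. The 10 counted members on the plus strand differed alike between the mimics. All lay between 0 and 0.18 at 6 h, 9 lay between -0.32 and -0.08 at 12 h with MT-ND3 at 0.15, all lay between -0.02 and 0.19 at 24 h, and all lay between 0.01 and 0.29 at 48 h. MT-CO3 may stand for them. It read 15.63 at 0 h, 15.94, 15.66, 16.00 and 16.55 with miR-16 and 15.76, 15.82, 15.94 and 16.36 with miR-CTR. Its miR-16 level was thus 0.18 above the control at 6 h, 0.16 below it at 12 h and 0.19 above it at 48 h. The late differences ran from 0.015 (MT-CO2 and MT-ND5) through 0.04 (MT-CO1), 0.09 (MT-ND1 and MT-ND4), 0.11 (MT-ND4L and MT-CYB), 0.125 (MT-CO3) and 0.19 (MT-ND2) to 0.24 (MT-ND3). MT-ATP6 differed late by 0.17 and MT-ATP8 by -0.035. MT-ATP8 overlaps MT-ATP6, and MT-ND4L overlaps MT-ND4, so that reads of these pairs cannot be told apart where they overlap.

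MT-ND6, the messenger RNA of the opposite strand, stood apart. It read 11.69 at 0 h, 11.20, 11.32, 11.36 and 11.03 with miR-16 and 11.55, 11.77, 11.64 and 11.25 with miR-CTR. It was lower with miR-16 at all 4 times, by 0.35, 0.45, 0.28 and 0.22, and the late difference of -0.25 had a counting SE of 0.029. The groups overlapped, since the miR-CTR level of 48 h (11.25) lay below those of miR-16 at 12 and 24 h. How the reads were assigned to strands is not given in the sources used here. Without strand, reads of MT-ND6 and of RNA antisense to it cannot be told apart.

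Levels between mitochondrial genes were compared per kb of gene, on the normalised linear scale. MT-CO2 came first and MT-CO1 second in all 9 libraries, with 132710 and 107590 normalised reads per kb at 0 h. MT-ATP6 (66646), MT-CO3 (64681), MT-RNR2 (54326) and MT-ND4 (54253) followed. These 4 neighbours were close to each other, and MT-ATP6, MT-CO3 and MT-RNR2 exchanged places between ranks 3 and 5 among the libraries, while MT-ND4 was always at rank 6. MT-ND6 was always at rank 15 with 6291 at 0 h, the last of the messenger RNAs, below the small ribosomal RNA MT-RNR1 (9795) at rank 14. The ribosomal and transfer RNAs carry short or no polyA tails, and these libraries were made from polyA RNA. How far this selection shaped the level of MT-ND6 and of the other MT- RNAs was not tested.

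Against the 0 h library the members of the 2 strands parted in the late averages. All minus-strand members except MT-ND6 were transfer RNA genes, which had 11 to 110 reads per library. Strand and type of RNA thus largely coincide here, and their parts cannot be told apart. Late with miR-CTR, 11 of 13 plus-strand members were higher than at 0 h, with MT-TL1 at 0 and MT-ND1 lower, and all 5 minus-strand members were lower. Late with miR-16, 12 of 13 plus-strand members were higher and again all 5 minus-strand members were lower. Among all members, 9 (7 of them MT-) were past 0.5 with miR-CTR and 8 (6 of them MT-) with miR-16, where 11% and 14.1% of all genes were. On the lower side 2 and 4 members were past -0.5, where 9.79% and 11.7% of all genes were. The 7 MT- genes higher by more than 0.5 in late miR-CTR were MT-RNR2 (0.825), MT-ND4L (0.605), MT-ND4 (0.595), MT-CO2 (0.54), MT-RNR1 (0.535), MT-CO3 (0.52) and MT-CO1 (0.51). With miR-16 the changes were 0.765 for MT-RNR2, 0.715 for MT-ND4L, 0.685 for MT-ND4, 0.645 for MT-CO3, 0.555 for MT-CO2 and 0.55 for MT-CO1, and 0.355 for MT-RNR1. The changes from 0 h with the 2 mimics share the 0 h library, so their likeness is no independent evidence.

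The plus-strand genes did not change alike over time. MT-ND1 and MT-ND2, which follow the ribosomal RNAs on the chromosome, changed late by -0.105 and 0.02 with miR-CTR and by -0.015 and 0.21 with miR-16, unlike MT-ND4 and MT-ND4L. MT-ND1 read 14.96 at 0 h, 15.35, 14.90, 14.94 and 14.95 with miR-16 and 15.19, 15.22, 14.94 and 14.77 with miR-CTR, so that it stood above its starting level at 6 h with both mimics and at 12 h with miR-CTR. MT-ND5 changed late by 0.225 and 0.24, MT-CYB by 0.355 and 0.465 and MT-ND3 by 0.195 and 0.435 with miR-CTR and miR-16. Of the ribosomal RNAs, MT-RNR2, the large one, read 16.37 at 0 h and 17.33 and 17.25 at 48 h with miR-CTR and miR-16. The late differences between the mimics were -0.06 for MT-RNR2 and -0.18 for MT-RNR1.

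On the minus strand MT-ND6 changed late by -0.245 (SE 0.032) with miR-CTR and -0.495 (SE 0.034) with miR-16. The transfer RNA genes MT-TQ, MT-TS1, MT-TE and MT-TP changed by -0.39, -1.285, -0.735 and -0.485 with miR-CTR and by -0.5, -0.955, -1.035 and -0.89 with miR-16. They and MT-TL1 had 11 to 110 reads per library, and the counting SE of their late differences between the mimics was 0.17 to 0.31, as large as several of these differences. MT-TQ shows how unsteady they were, with -1.26 at 24 h and 1.04 at 48 h. MT-TL1, on the plus strand between MT-RNR2 and MT-ND1, differed by 0.29, 0.02, 0.30 and 0.40. Of the other RNAs without a polyA tail, RN7SL2 differed by 3.47 at 24 h and by -1 at 48 h and RN7SK by 0.88 and 0.29. RN7SK was low, at 3.35 to 4.84 over the libraries, and its late difference had a counting SE of 0.33. The part of such RNAs in the values of the ribosomal and transfer RNAs was not tested.

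**Figure D4:**
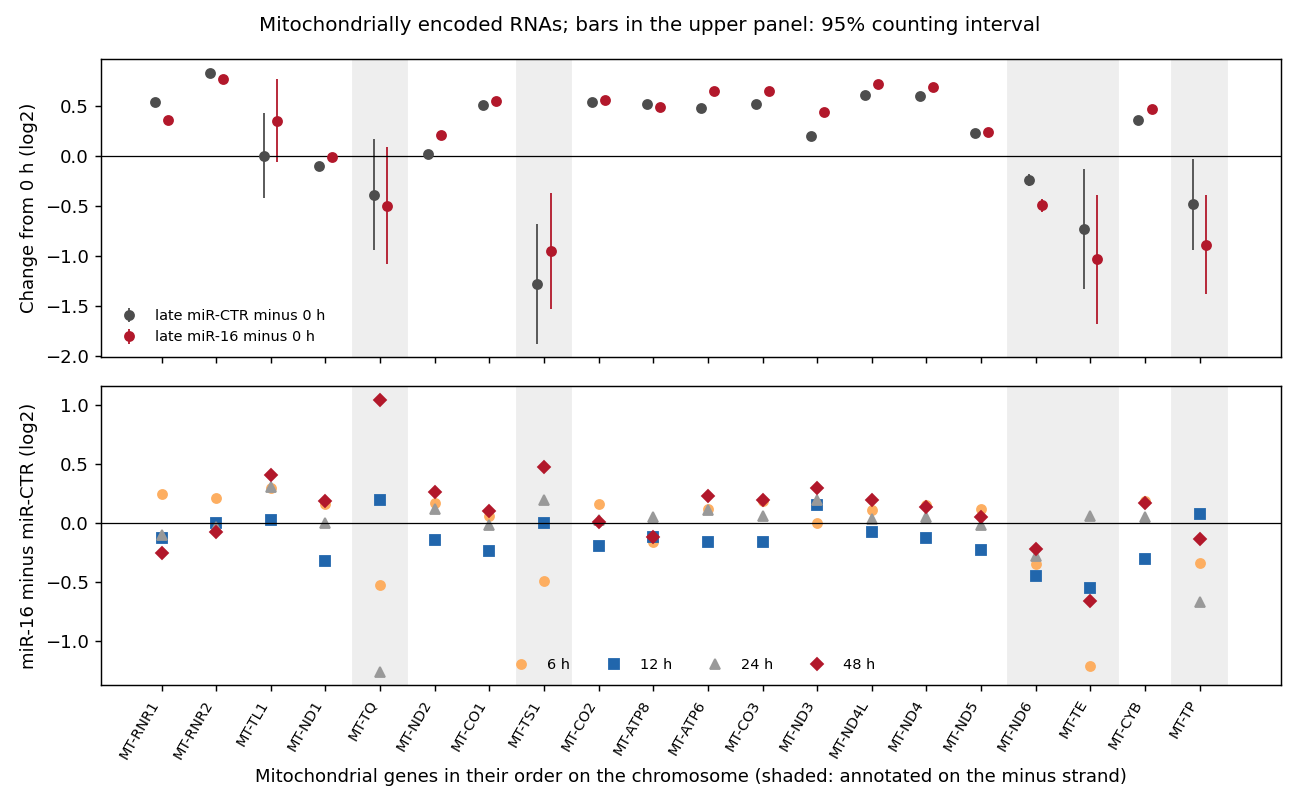
The 18 MT- members and MT-ATP6 and MT-ATP8 in their order on the mitochondrial chromosome, with genes of the minus strand shaded, as change from 0 h in the late window (upper, log2, bars of 95% counting intervals, miR-CTR grey and miR-16 red) and as difference between the mimics at each time (lower, log2). All 5 minus-strand genes lay below 0 in the upper panel with both mimics, while most plus-strand genes lay above it, up to 0.825 for MT-RNR2.

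Nuclear copies of mitochondrial sequence may take some of these reads. The 7 copies measured had a median late difference of 0.085 and a median change from 0 h of 0.495 with miR-CTR. MTND2P28, a copy of the MT-ND2 region, was at 13.97 at 0 h and differed late by -0.03.

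Most nuclear-encoded members also stood above 0 h, with smaller medians than the 13 plus-strand MT- members (0.51 late with miR-CTR and 0.465 with miR-16). Over all 18 MT- members these medians were 0.21 and 0.35. At 48 h with miR-CTR the nuclear median was 0.25, above the 0.21 of those 18. Late with miR-CTR 69 of 86 (80.2%) were higher than at 0 h, against 49.4% of all genes, with a median of 0.18. Late with miR-16 65 of 86 (75.6%) were higher, against 49.4% of all genes, with a median of 0.13. Past 0.5 in late miR-CTR were UQCRC2 (0.615) and NDUFB1 (0.52), an accessory subunit of complex I. UQCRC2 read 11.45 at 0 h, 11.52, 11.61, 11.88 and 12.25 with miR-CTR, against 11.45, 11.63, 11.73 and 12.05 with miR-16, so that it was above 0 h at all 4 times with miR-CTR and from 12 h on with miR-16. In late miR-16, NDUFA7 (0.715) and COX6A1 (0.54) were past 0.5 and NDUFAF4 (-0.765, or 0.588 times the starting level) was past -0.5.

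By complex, the late change with miR-CTR had a median of 0.24 for the complex I core, 0.10 for its supernumerary subunits, -0.02 for its assembly factors, 0.0875 for complex II, 0.20 for complex III, 0.25 for complex IV and 0.19 for ATP synthase. With miR-16 these medians were 0.195, 0.09, -0.11, 0.03, 0.23, 0.325 and 0.18. All 8 genes of complex III were higher than at 0 h with both mimics, and all 7 assembly factors of complex I were lower than at 0 h with miR-16, NDUFAF7 by 0.005 only.

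Promoters were looked at because the nuclear genes of the chain are known to share sites for the factors NRF1, GABPA (an ETS factor) and YY1. RefSeq promoters (GRCh38.p14), from 250 bases before to 50 after the start, were at hand for 71 of 86 nuclear-encoded members and were searched on both strands. The NRF1 word GCATGCGC, which can overlap its own reverse complement, was in 15 of 71 (21.1%) against 5.78% of all 9971 promoters. The ETS word CCGGAAG was in 20 (28.2%) against 19.7%, and the YY1 word AAGATGGC in 11 (15.5%) against 5.62%. A match is a description of the sequence only. Examples are shown with up to 20 bases around the word in capitals, read along the gene's strand, for the called NDUFAF4 and for members higher with miR-16 or holding a site.
NDUFAF4, ETS, chr6:96898012-96898058, minus strand: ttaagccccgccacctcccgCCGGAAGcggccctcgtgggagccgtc
COX6A1, NRF1, chr12:120437875-120437922, plus strand: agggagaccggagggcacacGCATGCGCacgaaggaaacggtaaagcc
ATP5I, NRF1 on the other strand, chr4:674327-674374, minus strand: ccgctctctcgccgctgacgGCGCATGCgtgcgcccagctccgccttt
NDUFS7, NRF1, chr19:1383814-1383861, plus strand: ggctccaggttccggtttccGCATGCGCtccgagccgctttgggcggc
NDUFA13, ETS, chr19:19516195-19516224, plus strand: taagtcacttccgcccgggaCCGGAAGtgt
The members with an NRF1, ETS or YY1 word had median late differences of -0.005, -0.01 and -0.015, and NDUFAF4 (lower) and ATP5I and COX6A1 (higher) each held both an NRF1 and an ETS word.

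Genes that serve the chain without being members were taken from lists. Among 10 regulators of nuclear respiratory genes, PPARGC1A (PGC-1α), a coactivator of mitochondrial biogenesis, was called lower and MYC higher. Of all genes 5.73% were called lower late and 7.76% higher. PPARGC1A read 8.99 at 0 h, 9.49, 9.92, 10.49 and 11.06 with miR-CTR, against 9.33, 9.66, 9.92 and 10.24 with miR-16. It was higher at each later time in both series and less so with miR-16, by 0.695 late, and its change from 0 h was 1.785 late with miR-CTR and 1.09 with miR-16. MYC read 12.24 at 0 h, 12.66 and 12.71 with miR-16 at 24 and 48 h and 12.10 in both control libraries, a late difference of 0.585. NRF1 (-0.09), GABPA (-0.14), ESRRA (-0.215) and YY1 (-0.095) were not called.

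Among 23 assembly factors of complex IV, COX17, a copper chaperone, was called lower with -0.645 late, where 5.73% of all genes were. It read 9.05 and 8.95 with miR-16 and 9.49 and 9.80 with miR-CTR at 24 and 48 h. None of the 10 assembly factors of complex I outside the rule (median late -0.07), of the 7 for complexes II and III (0.115) or of the 6 for ATP synthase (-0.05) was called. Cytochrome c (CYCS) differed late by -0.205 and changed from 0 h by -0.395 with miR-CTR and -0.60 with miR-16, while cytochrome c1 (CYC1) differed by -0.02. The 13 citric acid cycle enzymes had a median late difference of -0.165 and of -0.22 at 48 h, none was called, and citrate synthase (CS) was at 0.395.

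Most of the genes that express the mitochondrial DNA took another course than most of its plus-strand RNAs. Of the 10 measured genes for mitochondrial transcription and replication, none was called between the mimics (median late 0.15), and only 2 were higher late with miR-CTR than at 0 h, with a median change of -0.23. Late with miR-16, 4 were higher, with a median change of -0.03. The 2 higher with miR-CTR were TFB1M (0.73, and 0.56 with miR-16) and TOP1MT (0.075, and 0.41 with miR-16). TFAM, which packages the DNA and starts transcription, changed by -0.425 with miR-CTR and -0.625 with miR-16 and differed late by -0.20, and POLRMT, the RNA polymerase, changed by -0.095 and -0.03. Of 77 genes of the mitochondrial ribosome 18 were higher late with miR-CTR than at 0 h (median -0.185), where 69 of 86 nuclear-encoded members were. Between the mimics their median late difference was 0. Of the 77, 1 was called lower (MRPL20, -0.795), where 5.73% of all genes were. MRPS14 (0.905) and MRPS6 (0.55) were called higher, 2 of 77, where 7.76% of all genes were. The 17 genes for mitochondrial RNA processing had a median late difference of -0.11 and no call.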

How the data were processed

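The authors deposited 1 table of normalised log2 values for 14839 genes and 9 libraries, with 2 decimals and a decimal comma. The submitters' processing notes name FastQC, STAR 2.4.0a, featureCounts and Subread 1.5.0-p3 and the builds hg38 and GRCh38. The annotation, the strand setting and the normalisation are not given in the sources used here. Column names carry the mimic and a time index, which was read as the rank of the times in the labels. After the log was undone and 1 taken off, all low values of each library were whole multiples of 1 step, within the rounding to 2 decimals, so the unit is log2(reads / size factor + 1). Reads were recovered by this step, used for totals and counting SE, and not tested, since each condition had 1 library. No table of comparisons by the authors was used.

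Genes were joined to GENCODE 29 by symbol. Of the 104 members 87 matched directly and 17 through a RefSeq synonym. Medians and calls past 0.5 are given beside those of all genes. Shares of reads by library carry counting error only, and at these depths it is below the last digit printed for the 2 genomes' totals. The genes named are all MT- members, members past 0.5 late, the 2 highest and 2 lowest of each complex, the ubiquitous partners of tissue isoforms, members with a seed match, the SDH genes and list genes past 0.5 late. Others named, among them those chosen for the time course, were picked after their values were seen. The members and lists were chosen with earlier results of these data known. Read recovery and calls were tested on simulated data. Alternatives were other scalings, thresholds, windows, filters and members. Python 3.11.15, pandas 2.3.3, numpy 2.4.6 and matplotlib 3.10.9 were used.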

Additional observations from a re-analysis of the deposited data

Results flagged for a closer look

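Medians over several genes that point in opposite directions at different times stood out, with 1 library per condition, so that the difference between the times was not tested. The median difference of the 10 counted plus-strand mitochondrial messenger RNAs was 0.155 at 6 h and -0.18 at 12 h. The median difference of the 86 nuclear-encoded members was 0.05 at 24 h and -0.12 at 48 h.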

How the results depend on the processing

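With 1 library per condition no replicate could be left out. No test was run, and the libraries of the 2 mimics were paired by time only in the differences themselves: a fit with the 4 times as blocks was not run. The numbers of members called late (1 lower, 1 higher) were 2 lower under quantile normalisation, 2 and 3 lower at 24 and 48 h alone, 0 lower with a 1.5-fold threshold, 0 higher in the early window or without the lowest 25% of genes, and 0 in both directions when both 24 and 48 h had to pass and with reads scaled to the total of all or of nuclear-encoded reads. The median late difference of the nuclear-encoded members (-0.028) was 0.003 under quantile normalisation, -0.018 after centring, -0.014 and -0.011 scaled to all and to nuclear-encoded reads, 0.05 and -0.12 at 24 and 48 h and 0.045 early, so its sign changed with the window and with quantile normalisation. That of the MT- members (0.065) was 0.017, 0.075, 0.078 and 0.081 under these scalings, 0.025 and 0.15 at 24 and 48 h, -0.038 early, 0.09 without the lowest 25%, 0.022 as a mean and, added after seeing the data, 0.09 without the 5 transfer RNA genes.

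The median changes from 0 h kept their direction under every alternative run. For nuclear-encoded members in late miR-CTR (0.18) the values were 0.192 (quantile), 0.191 (scaled to nuclear-encoded reads), 0.095 (24 h) and 0.25 (48 h), and in late miR-16 (0.132) they were 0.183, 0.16 and, at 48 h, 0.12. For MT- members in late miR-CTR (0.21) they were 0.187 (quantile), 0.222 (scaled to nuclear-encoded reads), 0.24 (24 h), 0.29 with MT-ATP6 and MT-ATP8 and 0.51 without the transfer RNA genes. In late miR-16 (0.352) they were 0.244 (quantile), 0.32 and 0.34 (scaled to all and to nuclear-encoded reads), 0.365 and 0.325 (24 and 48 h), 0.395 with MT-ATP6 and MT-ATP8 and 0.465 without the transfer RNA genes. The shift with the transfer RNA genes follows from their low or negative values. The cause of the other shifts was not tested. The scalings moved the median of all genes by less than 0.1. Values within a few hundredths of 0 and the transfer RNA genes are beyond what this depth and design can resolve.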
